A study of Mus musculus with 16 samples.

Results

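The 10 genes described here handle iron in brain cells or protect membranes from iron-driven lipid damage. They are *Ftl1* and *Fth1*, *Trf*, *Tfrc*, *Slc40a1*, *Slc11a2*, *Cp*, *Hmox1*, *Ireb2* and *Gpx4*, and they make up 10 of the 28683 genes counted in the series. They were chosen by symbol, and *Ftl1* was picked from its lower level with tamoxifen in ependymal cells of wild-type mice, so that difference is given below as a description with no test. Single cells were collected by Drop-seq from the hypothalamus and preoptic area (hypothalamus-POA) of 16 female mice on a CD-1;129P2 mixed background, with 1 library per mouse. There were 3 wild-type (WT) mice given oil, 5 WT mice given tamoxifen, 4 Esr1cKO mice given oil and 4 Esr1cKO mice given tamoxifen. Esr1cKO mice carried a floxed *Esr1* allele, the gene for estrogen receptor alpha, and an *Nkx2-1* Cre driver, a BAC transgene active in the medial basal hypothalamus and also in the thyroid, pituitary and lung lineages. The WT mice were Cre-negative littermates, and whether they carried floxed alleles is not given in the sources used here. All mice were 8 to 10 weeks old at the start, and they received 28 daily subcutaneous injections of tamoxifen at 0.1 mg/kg, or of corn oil with ethanol as vehicle.

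Iron enters most cells when transferrin, the circulating iron carrier encoded by *Trf*, binds the transferrin receptor *Tfrc* and is taken into endosomes, from which *Slc11a2* (DMT1) moves iron to the cytosol. Ferritin, a hollow shell of heavy (*Fth1*) and light (*Ftl1*) chains, stores it, ferroportin (*Slc40a1*) exports it with the help of the ferroxidase ceruloplasmin (*Cp*), and heme oxygenase 1 (*Hmox1*) releases it from heme. Iron regulatory proteins, among them the product of *Ireb2*, bind hairpins called iron-responsive elements, which lie before the coding sequence of ferritin and ferroportin mRNAs, where binding lowers translation, and after that of *Tfrc* mRNA, where binding stabilises it. *Gpx4* encodes the glutathione peroxidase that reduces lipid hydroperoxides in membranes and limits ferroptosis. In brain, oligodendrocytes are known for their iron and ferritin content, and capillary endothelium is known as the route by which iron enters.

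The hairpins that tie these mRNAs to the same regulators are printed below because they link the storage, export and uptake genes. A search of untranslated regions (UTRs) in mouse Gencode transcripts on GRCm38 looked for an unpaired C, 5 bases, the 6-base loop CAGTGN with N being A, C or T, and 5 bases that pair with the first 5, G-U pairs allowed, 17 bases in all on the transcript strand. Capitals mark the loop, and each sequence is written 5′ to 3′ on the transcript strand.
*Fth1*, 5′ UTR, chr19:9982738-9982754, plus strand: cttcaaCAGTGCttgaa
*Ftl1*, 5′ UTR, chr7:45459785-45459801, minus strand: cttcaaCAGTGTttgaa
*Slc40a1*, 5′ UTR, chr1:45925471-45925487, minus strand: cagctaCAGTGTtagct
*Tfrc*, 3′ UTR, chr16:32631225-32631241, plus strand: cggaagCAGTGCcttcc
*Tfrc*, 3′ UTR, chr16:32631604-32631620, plus strand: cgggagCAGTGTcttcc
*Tfrc*, 3′ UTR, chr16:32631669-32631685, plus strand: cggagaCAGTGAtctcc
*Tfrc*, 3′ UTR, chr16:32631716-32631732, plus strand: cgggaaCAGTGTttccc
The UTRs of *Ftl1*, *Fth1* and *Slc40a1* each held 1 match upstream of the coding sequence, and *Tfrc* held 4 downstream of it. Of 21877 protein-coding genes, 0.105% held a match in a 5′ UTR and 0.457% in a 3′ UTR. A match is a string of letters and was not tested for binding, and no match to this pattern was found in the UTRs of the other members. The pattern allows no mismatch or bulge within the 5 pairs, so elements of another form would be missed. A missing match therefore does not show that a member, or another part of *Tfrc*, lacks such an element.

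The 16 libraries held 2634253 to 8038158 unique molecular identifiers (UMIs, 1 per captured mRNA molecule), and 55675 cells passed the gene and mitochondrial filters, 1746 to 5568 per library with a median of 563 to 819 UMIs per cell. Clusters of cells were named from marker genes and are "like" those types only by their markers. They were astrocyte (13563 cells, led by *Itih3* and *Agt*), oligodendrocyte (9231, led by *Ermn*), neuron (9145, *Avp* and *Scg2*), endothelial (7184, *Ly6c1* and *Ly6a*), microglia (5400, *Ctss* and *C1qb*), polydendrocyte (4433, *Pdgfra* and *Neu4*), ependymal (3388, *Ttr* and *Tmem212*), mural (2361, *Acta2* and *Myh11*) and fibroblast (970, *Dcn* and *Prg4*). The 10 members were left out of the genes used for clustering. Libraries stood apart in several ways. WT oil mouse 3 and Esr1cKO tamoxifen mouse 3 held no barcode with fewer than 100 genes, against 20 in the other 14 libraries, and they had the lowest *Esr1* levels, at 16.4 and 10.1 CPM (UMIs per 1000000 UMIs) against 33.2 to 90.8. *Esr1* transcript overlapped between the genotypes, at 16.4 to 90.8 CPM in WT and 10.1 to 60.3 CPM in Esr1cKO mice. The study also detected no significant fall of the transcript. Its immunostaining showed loss of the receptor protein in several areas of the hypothalamus-POA, so the overlap is not read as a failed knockout. WT tamoxifen mice 4 and 5, Esr1cKO oil mouse 4 and Esr1cKO tamoxifen mouse 4 shared 303 to 359 cell barcodes in each pair, up to 10.8% of the smaller library, while the median over all 120 pairs was 1. WT oil mouse 1 had the fewest cells, and Esr1cKO oil mouse 4 had the highest mitochondrial share (9.21%) and the lowest share of ribosomal protein UMIs (2.44%).

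Each cell type was compared with all other cells of the same mice (edgeR quasi-likelihood test, library as a block, Benjamini-Hochberg adjustment over all genes in that comparison, threshold 0.05), and levels are CPM of the cell type's own UMIs. Of 82 member-type pairs that could be tested, 62 passed, 25 with the higher level in the type and 37 with the lower. Of 108088 gene-type pairs over all genes, 29.8% were higher and 37.9% lower. The member count was 60 to 63 when each library was left out. It was 60 with the cells of shared barcodes removed and 62 without the pair of libraries with the lowest *Esr1*. A pair could pass the count filter through either side, so a lower call can rest on the level in the other cells alone. For example, *Slc40a1* in fibroblasts had 8 UMIs, with 12 of 16 libraries at 0. Where few types held most UMIs of a member, its lower calls elsewhere follow from that and are not separate results. In microglia 7 of 10 members tested were higher and 2 lower, where 30.2% and 43.6% of all genes were. *Hmox1*, 1 of the 7, passed the count filter in no other type and did so through its microglial level. Its call is also counted in the 62 and the 25 and is not read as support. In oligodendrocytes 5 of 9 were higher and 3 lower (all genes 32.9% and 42.4%), and in endothelial cells 4 and 3 of 9 (36.2% and 40.3%). Ependymal cells had 2 higher and 4 lower of 9 (30.8% and 34.1%), fibroblasts 2 and 3 (15.9% and 29.2%), and mural cells 1 and 4 (17.1% and 34%). Polydendrocytes had 2 higher and 6 lower of 9 (30.5% and 33.9%), astrocytes 1 and 6 (32.3% and 41.2%), and neurons 1 and 6 (40.4% and 41.3%). The median log2 difference of the members was highest in microglia at 0.42, where the median of all genes was -0.20, and lowest in neurons at -1.69, where it was 0.00. The microglial median lay between *Trf* (0.40) and *Ireb2* (0.43). Their plain CPM was near that of other cells, at 380.0 against 379.7 and 39.8 against 37.9. The neuron median was the value of *Ftl1*. Below it lay *Trf* (-5.85), *Cp* (-4.50), *Slc40a1* (-4.45) and *Fth1* (-1.88), each with most of its UMIs in 1 other type. The neuron median is therefore not read as a result about the members as a set. In mural cells and fibroblasts the median of all genes was -0.22, so values there are read against that shift. For 4 of the higher calls, *Cp* and *Ireb2* in microglia and *Ftl1* and *Slc11a2* in oligodendrocytes, 5 to 8 of 16 libraries lay above on plain CPM, and DESeq2 did not call the first pair. The called pairs were spread over all 9 types, and each member had its own order of levels.

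**Figure D1:**
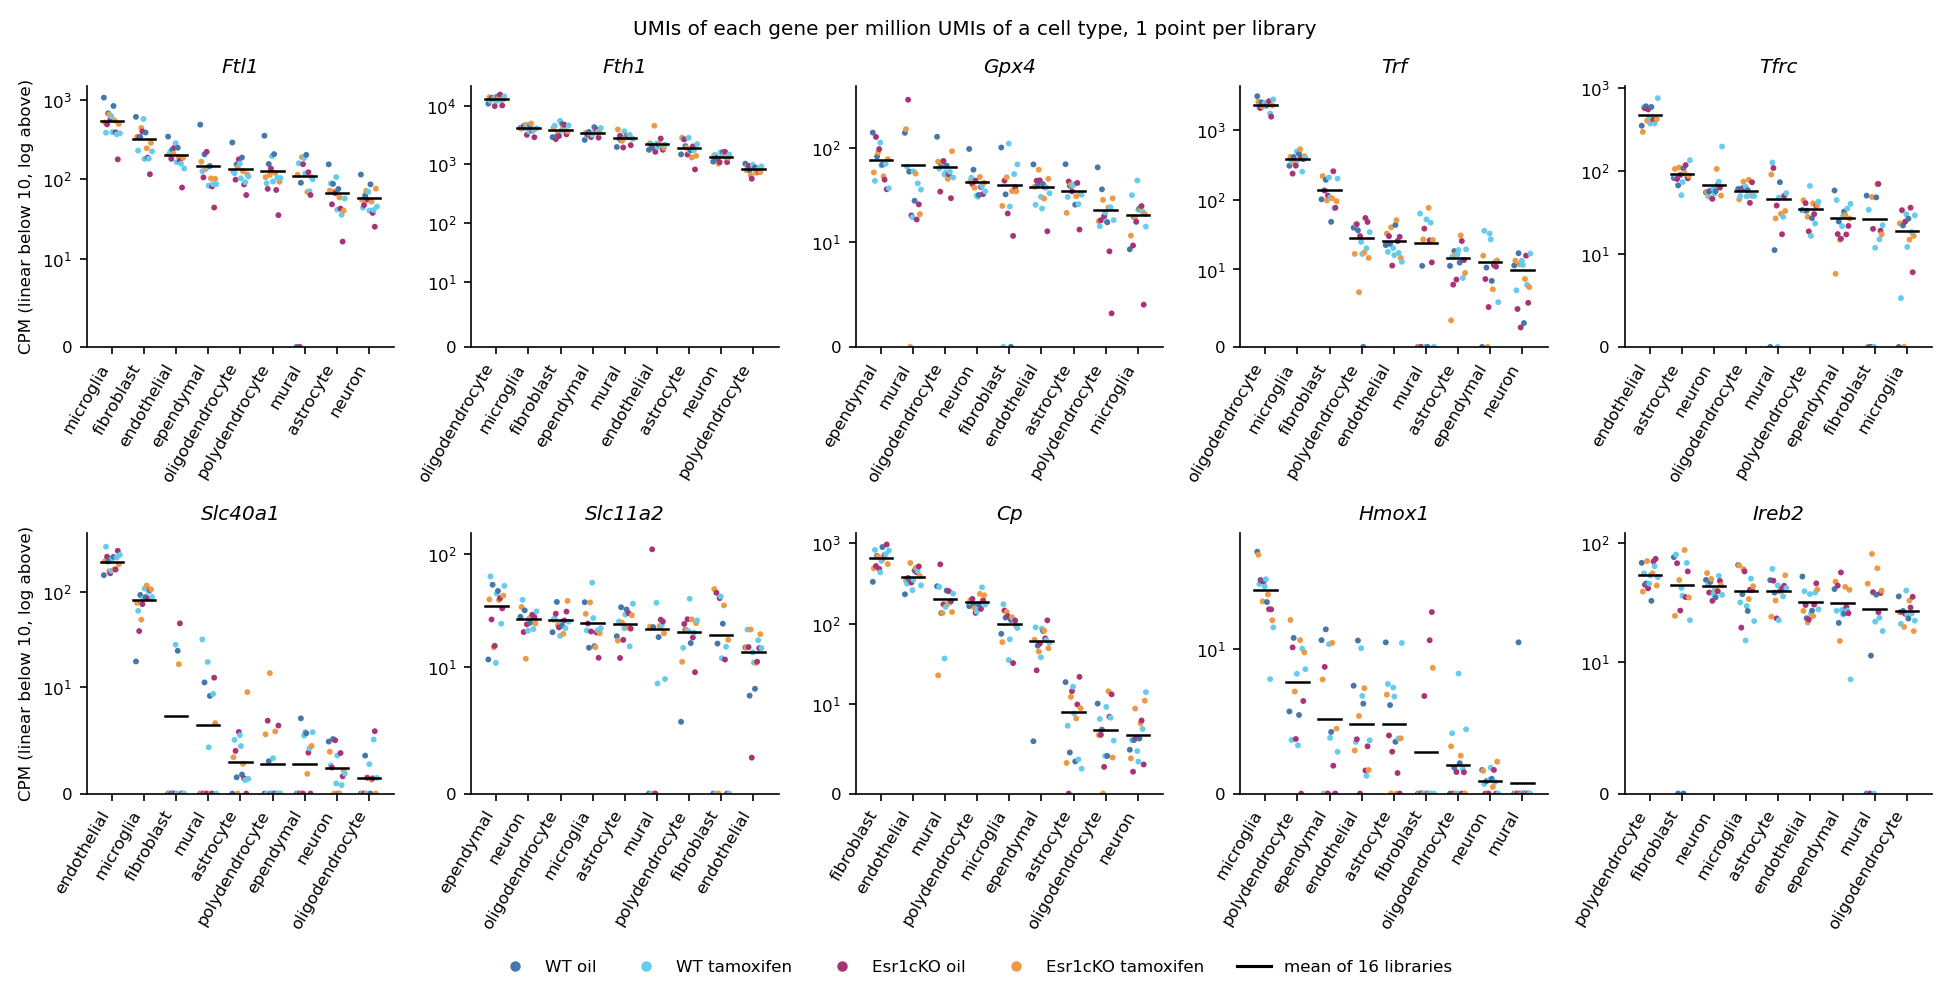
Level of each member in the 9 cell types, in CPM of the cell type's UMIs on an axis that is linear below 10 and logarithmic above; points are the 16 libraries coloured by group and the black line is their mean. *Fth1* and *Trf* are highest in oligodendrocytes, *Ftl1* and *Hmox1* in microglia, *Tfrc* and *Slc40a1* in endothelial cells and *Cp* in fibroblasts, while means span 13.7 to 34.8 CPM for *Slc11a2* and 26.9 to 53.5 CPM for *Ireb2*.

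*Fth1*, the ferritin chain that oxidises iron as it enters the shell (chr19:9980598-9985098, plus strand), was highest in oligodendrocytes, which held 51.2% of its UMIs and 14.6% of all UMIs. Oligodendrocyte levels were 10789, 13310.0 and 14263 CPM in WT oil mice and 12052, 14138, 12024, 12463 and 14370.4 CPM in WT tamoxifen mice. They were 13444, 9805, 15373 and 10025 CPM in Esr1cKO oil mice and 13834, 13022, 13695 and 12744 CPM in Esr1cKO tamoxifen mice, and the 4 groups overlapped. The mean was 12834 ± 1583 CPM (SD, n = 16) against 2075 CPM in all other cells, a log2 difference of 3.05 (SE 0.05, edgeR adjusted p = 6.77e-34). Microglia (4085 ± 552 CPM, log2 difference 0.55, higher in 12 of 16 libraries) were the other type above the rest. Polydendrocytes, the precursors of oligodendrocytes, had the lowest level at 822 ± 123 CPM (log2 difference -2.32, SE 0.06, edgeR adjusted p = 1.9e-33), lower than the rest in 16 of 16 libraries. Fibroblasts (3879 CPM) and ependymal cells (3391 CPM) did not pass the test, and in fibroblasts the sign of the difference depended on the scaling. In the order of means, neighbours from microglia to ependymal cells and from mural cells to astrocytes did not differ beyond 1 SD of their within-library difference.

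*Ftl1*, the light chain that helps iron mineralise inside the shell (chr7:45457944-45459884, minus strand), had another order. It was highest in microglia, the resident macrophages of the brain, at 1063, 675 and 835 CPM in WT oil mice and 385, 619, 391, 367 and 378 CPM in WT tamoxifen mice. Esr1cKO oil mice had 489, 561, 388 and 178 CPM and Esr1cKO tamoxifen mice 518, 655, 547 and 496 CPM. In every library microglia were above the other cells (534 ± 210 against 112 CPM; log2 difference 2.63, SE 0.07, edgeR adjusted p = 1.85e-33). Fibroblasts (317 ± 141 CPM, log2 difference 1.22) and endothelial cells (204 ± 62 CPM, 0.91) were also above the rest, each in 16 of 16 libraries. Astrocytes (66.2 ± 32.7 CPM, log2 difference -1.06) and neurons (57.6 ± 21.97 CPM, -1.69) were below the rest in every library. Oligodendrocytes were called higher with a log2 difference of 0.34, but on plain CPM they were lower, 134 against 142 CPM and higher in 5 of 16 libraries, so no direction is read there. Microglia, fibroblasts and endothelial cells differed from the next type in order beyond 1 SD, and the 5 pairs of neighbours below them did not.

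The ratio of *Ftl1* to *Fth1* UMIs within a library does not depend on scaling. It was highest in polydendrocytes and microglia and lowest in oligodendrocytes. There were 0.139 *Ftl1* UMIs per *Fth1* UMI in polydendrocytes, 0.123 in microglia and 0.00985 in oligodendrocytes (geometric means over 16 libraries). On the log2 scale polydendrocytes lay at -2.85 ± 0.71 (SD, n = 16), 2.004 above the other cells of the same mice, and microglia at -3.03 ± 0.49, 2.08 above them, each in 16 of 16 libraries. Oligodendrocytes lay at -6.67 ± 0.57, 2.71 below the other cells (a difference of -2.71) in 16 of 16. An exact two-sided sign-flip test over libraries gave adjusted p = 9.16e-05 over 9 types for each of these 3, from the smallest p that 16 libraries allow (3.05e-05). Endothelial cells (difference 1.503, exact sign-flip adjusted p = 0.000137, higher in 15 of 16) and fibroblasts (1.08, exact adjusted p = 0.00022, 14 of 14) were also above the rest. Neurons differed by 0.19 (exact adjusted p = 0.0215, 12 of 16) and astrocytes by -0.21 (exact adjusted p = 0.0296, higher in 3 of 15), and the astrocyte call was lost when any 1 of 5 libraries was left out. Those libraries were Esr1cKO oil mouse 1, Esr1cKO tamoxifen mice 1 and 4, and WT tamoxifen mice 3 and 4, and the differences without each were -0.19 to -0.18. Ependymal cells (0.03, exact adjusted p = 0.823) and mural cells (0.31, 7 libraries, exact adjusted p = 0.158) did not pass. For each type but oligodendrocytes, the other cells include oligodendrocytes, which held 51.2% of *Fth1* UMIs and lower the ratio of that set. All cells but oligodendrocytes had 0.0643 *Ftl1* UMIs per *Fth1* UMI, above neurons (0.0408), mural cells (0.0406) and ependymal cells (0.0365). The neuron call is therefore relative to a set with oligodendrocytes, and no direction is read there. The number of calls was also 7 with shared barcodes removed and without the pair of libraries that stood apart. It was 5 without WT oil mouse 2 and Esr1cKO tamoxifen mouse 2, where the neuron (0.16) and astrocyte calls were lost.

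**Figure D2:**
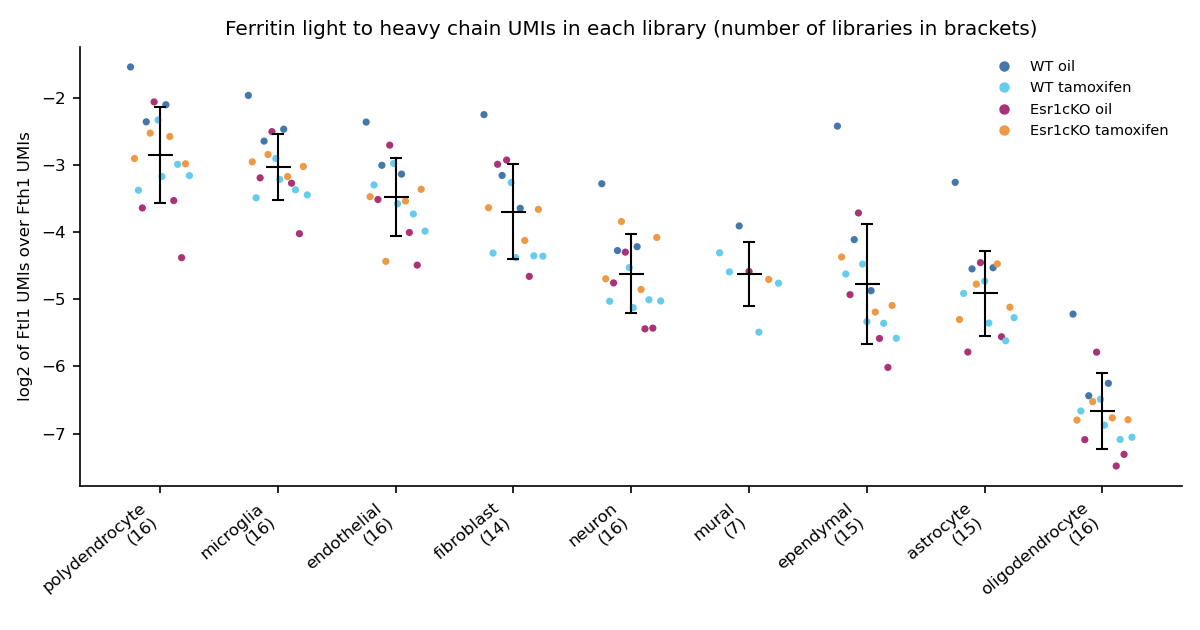
The log2 ratio of *Ftl1* to *Fth1* UMIs in each cell type; points are libraries with at least 10 UMIs of each gene, coloured by group, and black marks are the mean ± SD. Oligodendrocytes lie at a mean of -6.67 and polydendrocytes at -2.85.

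The reads behind *Ftl1* need a caution. In the last 500 bases of the *Ftl1* transcript, which a 3′ method reads, 80.9% of 50-base stretches also occur in transcripts of 15 other annotated genes, mostly processed pseudogenes, and the share was 88.9% for *Gpx4*, 37.0% for *Trf*, 12.9% for *Fth1* and 0 for the other 6 members. How reads that fit several places were counted is not given in the sources used here. The copy that shares the most stretches (69.8%), *Gm10116* (chr13:74406397-74407325, a pseudogene, GRCm38), was counted under its own name with 2211 UMIs against 7758 for *Ftl1*, and 4 others with 46 to 1046 UMIs, each sharing 0.222% to 2.22% of the stretches. *Gm10116* took 20.8% to 24.0% of the UMIs of the pair in every cell type, and it had the highest likeness to the *Ftl1* pattern of 12730 genes compared (Pearson r = 0.993 over 9 cell types). Levels of *Ftl1* and *Gpx4* are therefore uncertain by what their copies took or gave, a limit that the 6 members with no shared stretch do not carry.

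*Trf*, the iron carrier (chr9:103204001-103230444, minus strand), was an oligodendrocyte transcript: that type held 89.1% of its 22161 UMIs. Oligodendrocyte levels were 3072, 2503 and 2285 CPM in WT oil mice, 2097, 2460.1, 2202, 1732 and 2761 in WT tamoxifen mice, 2082, 2312, 2604 and 1562 in Esr1cKO oil mice and 2571, 2188, 2389.7 and 2264 in Esr1cKO tamoxifen mice. The lowest library lay above every library of every other type. The mean of 2318 ± 367 CPM compared with 48.0 CPM in other cells (log2 difference 5.998, SE 0.08, edgeR adjusted p = 3.46e-37). Microglia came next at 380.0 ± 79.9 CPM and were called higher by 0.40, although the plain CPM of the other cells was 379.7 and 11 of 16 libraries lay above. Fibroblasts had 136 ± 61 CPM, and the 6 other types had means of 9.96 to 28.2 CPM, all called lower than the rest, with neurons lowest.

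*Tfrc*, the transferrin receptor (chr16:32608920-32632794, plus strand), was highest in endothelial cells, which held 55.6% of its UMIs. The 16 endothelial levels were 351, 601 and 589 CPM in WT oil mice, 586, 443, 372, 374 and 751 in WT tamoxifen mice, 567, 551, 412 and 420.1 in Esr1cKO oil mice and 295, 403, 405 and 419.8 in Esr1cKO tamoxifen mice. All 16 exceeded the other cells of the same mouse, with means of 471 ± 122 and 58.0 CPM (log2 difference 3.25, SE 0.08, edgeR adjusted p = 1.45e-25). The other 8 types were called lower, from astrocytes (91.3 ± 20.5 CPM, log2 difference -0.19, edgeR adjusted p = 0.0412) to microglia (18.9 ± 11.5 CPM, -2.26). The astrocyte call was lost when any 1 of 6 libraries was left out (Esr1cKO oil mouse 4, Esr1cKO tamoxifen mouse 4, WT oil mouse 2 and WT tamoxifen mice 2, 3 and 5; log2 differences -0.19 to -0.15). Apart from endothelial cells over astrocytes, no neighbours in the order differed beyond 1 SD.

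The export genes were called higher in endothelium like the uptake receptor, and each was also called higher in types where *Tfrc* was not. *Slc40a1*, ferroportin (chr1:45908068-45926523, minus strand), had 78.5% of its UMIs in endothelial cells, at 149, 207 and 232 CPM in WT oil mice, 296, 166, 224, 228 and 243 in WT tamoxifen mice, 233, 156, 171 and 268 in Esr1cKO oil mice and 209, 164, 173 and 194 in Esr1cKO tamoxifen mice. The mean was 207 ± 43 CPM against 8.99 CPM in other cells (log2 difference 4.72, SE 0.10, edgeR adjusted p = 1.21e-27). Microglia were the only other type called higher, at 81.1 ± 26.8 CPM (log2 difference 1.74, SE 0.12, edgeR adjusted p = 1.84e-17, 16 of 16 libraries), which sets them opposite to *Tfrc*, lowest in the same cells. The other 7 types had means of 1.44 to 7.27 CPM from 8 to 44 UMIs each.

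*Cp*, the ferroxidase that acts beside ferroportin (chr3:19957054-20009145, plus strand), was highest in fibroblasts, at 330.0, 694 and 893 CPM in WT oil mice, 823, 433, 599.7, 727 and 806 CPM in WT tamoxifen mice, 519, 479, 713 and 962 in Esr1cKO oil mice and 487, 684, 647 and 548 in Esr1cKO tamoxifen mice. The fibroblast mean was 646 ± 175 CPM (log2 difference 2.93, SE 0.11, edgeR adjusted p = 3.68e-61). Endothelial cells, more numerous, held 54.6% of the UMIs at 384 ± 94 CPM (log2 difference 3.09, SE 0.07, edgeR adjusted p = 1.82e-26). Both lay above the rest in 16 of 16 libraries. Polydendrocytes (184 ± 38 CPM, log2 difference 0.93, 15 of 16 libraries) and mural cells (201 ± 120 CPM, 0.91, 13 of 16) followed, and the mural value turned to -0.78 with cells of more than 500 genes. Astrocytes, oligodendrocytes and neurons had 9.16, 7.15 and 6.57 CPM. Microglia were called higher by 0.36, but their CPM equalled that of other cells (99.9 against 99.6, 8 of 16 libraries) and DESeq2 did not call them.

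The remaining iron genes were low in every type. *Slc11a2*, the endosomal iron transporter (chr15:100387898-100425072, minus strand), ranged from 13.7 CPM in endothelial cells (log2 difference -0.75, edgeR adjusted p = 4.67e-05) to 34.8 ± 16.02 CPM in ependymal cells (0.75, SE 0.14, edgeR adjusted p = 2.24e-05, 12 of 16 libraries). Oligodendrocytes were called higher by 0.51, with 7 of 16 libraries above on plain CPM, and 6 types did not pass. *Hmox1*, the heme-degrading enzyme (chr8:75093621-75100589, plus strand), had 280 UMIs in all and 105 of them in microglia. Microglial levels rested on 3 to 14 UMIs per library and were 56.0, 33.4 and 23.0 CPM in WT oil mice, 31.6, 30.2, 34.4, 7.92 and 14.7 in WT tamoxifen mice, 33.9, 33.0, 20.2 and 20.2 in Esr1cKO oil mice and 53.0, 23.2, 26.2 and 16.6 in Esr1cKO tamoxifen mice. Every library lay above its other cells, with means of 28.6 ± 12.7 and 3.16 CPM (log2 difference 3.45, SE 0.23). No other type had enough UMIs of *Hmox1* to be tested. The gene passed the count filter through its microglial level, so the difference is given as a description with no p-value. *Ireb2*, iron regulatory protein 2 (chr9:54863789-54912530, plus strand), was called higher in polydendrocytes at 53.5 ± 12.6 CPM (log2 difference 0.47, SE 0.11, edgeR adjusted p = 0.00023, 15 of 16 libraries) and in neurons at 43.2 ± 6.8 CPM (0.21, edgeR adjusted p = 0.00735, 14 of 16). Its calls in microglia and astrocytes were by 0.43 and 0.26 with 8 and 9 of 16 libraries above, and DESeq2 gave neither, nor the neuron call. No neighbours in the order of *Slc11a2* or of *Ireb2* differed beyond 1 SD.

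*Gpx4*, the lipid peroxide reductase (chr10:80047166-80056439, plus strand), had its highest mean in ependymal cells, the ciliated cells and tanycytes that line the ventricle. Ependymal levels were 146, 81.5 and 66.8 CPM in WT oil mice, 44.9, 115, 65.6, 68.1 and 37.5 in WT tamoxifen mice, 131, 97.7, 46.2 and 36.6 in Esr1cKO oil mice and 55.2, 89.9, 50.2 and 76.3 in Esr1cKO tamoxifen mice, from 5 to 48 UMIs each. All 16 were above the other cells of the same mouse (75.5 ± 33.1 against 41.5 CPM; log2 difference 0.90, SE 0.12, edgeR adjusted p = 3.7e-08). Oligodendrocytes were higher too (63.0 ± 24.0 CPM, log2 difference 1.003, SE 0.09, edgeR adjusted p = 1.19e-12, 15 of 16 libraries). In the order of means mural cells (66.7 ± 82.1 CPM) lay between ependymal cells and oligodendrocytes, and neither step differed beyond 1 SD of the within-library difference. Polydendrocytes (22.1 ± 13.3 CPM, -1.18) and microglia (19.6 ± 9.7 CPM, -0.77) were lower than the rest, and the other 5 types did not pass. For *Fth1*, *Trf* and *Gpx4* oligodendrocytes were called higher and polydendrocytes lower. Polydendrocytes were not alone in this, with lower calls in 5 of 9 types for *Fth1*, 7 for *Trf* and 2 for *Gpx4*. Their levels of these genes (822, 28.2 and 22.1 CPM) also lay below those of the low-depth barcodes described below (5529, 90.05 and 34.7 CPM). The opposite calls are therefore not read as a separate result.

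Finer clusters of the same cells (resolution 0.5) showed which cells within a type carried a member, and medians over libraries are given as a description. Within the endothelial type, a cluster with capillary and venous markers (5220 cells) had medians of 568 CPM *Tfrc*, 266 *Slc40a1* and 299 *Cp*. A second cluster was led by *Gkn3*, a marker of arterial endothelium, and by the pericyte genes *Rgs5* and *Higd1b*, with the endothelial gene *Ly6c1* also among its leading genes, so it is not named (1557 cells, median 1460.0 UMIs, 0.642% called doublets). It had 268 CPM *Tfrc*, 143 *Slc40a1* and 484 *Cp*. The pericyte-like cluster of the mural type (885 cells, median 393 UMIs) had 24.4 CPM *Tfrc*, a median of 0 for *Slc40a1*, and 505 *Cp*. Vascular smooth muscle-like cells (1480) had 61.1 CPM *Cp* and 34.3 *Tfrc*. All 1557 cells of the *Gkn3*-led cluster were in the endothelial type at resolution 0.05 and in the mural type at resolution 0.5. With types taken from resolution 0.5, the mural differences were 1.31 for *Tfrc*, 1.91 for *Slc40a1* and 0.68 for *Ftl1*, and the mural ferritin ratio lay 1.203 above that of other cells.

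Along the oligodendrocyte lineage, *Cp* was 206 CPM in oligodendrocyte precursor-like cells (4057) and a median of 0 in committed precursor-like cells (359), where 5 UMIs were counted, and 5.93 and 7.32 CPM in the mature clusters. *Trf* ran the other way, with 4.75, 73.2, 2032 and 2438 CPM in the same order. *Fth1* stayed at 806 and 634 CPM in the precursor clusters and was 12604 and 13532 CPM in the mature ones. In the microglia type, the cluster led by *S100a8*, *Lyz2* and *Cd74* (771 cells), which holds genes of other myeloid cells and was left unnamed, had 791 CPM *Ftl1*, 6374 *Fth1*, 616 *Trf* and 527 *Cp*. Parenchymal microglia-like clusters had 497 and 224 CPM *Ftl1* and 22.8 and 13.3 CPM *Cp*. The unnamed cluster had 313 *Cp* UMIs, where the whole microglia type had 396. Fibroblasts also divided, at 1017 CPM *Cp* and 209 *Trf* in the cluster led by *Dcn*, *Igf2* and *Lum* (732 cells) and 103 CPM *Cp* in that led by *Prg4* (238 cells). Ciliated ependymal-like cells (1896) had 97.3 CPM *Cp* and 75.1 *Ftl1*, while tanycyte-like cells (1287) had 7.62 CPM *Cp* and 174 *Ftl1*. Astrocytes led by *Gfap* (711) had 3813 CPM *Fth1* against 1512 in the main cluster (12853), and *Gfap*-led cells carried mitochondrial tRNA genes among their leading genes and a median of 1320 UMIs per cell against 468.

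**Figure D3:**
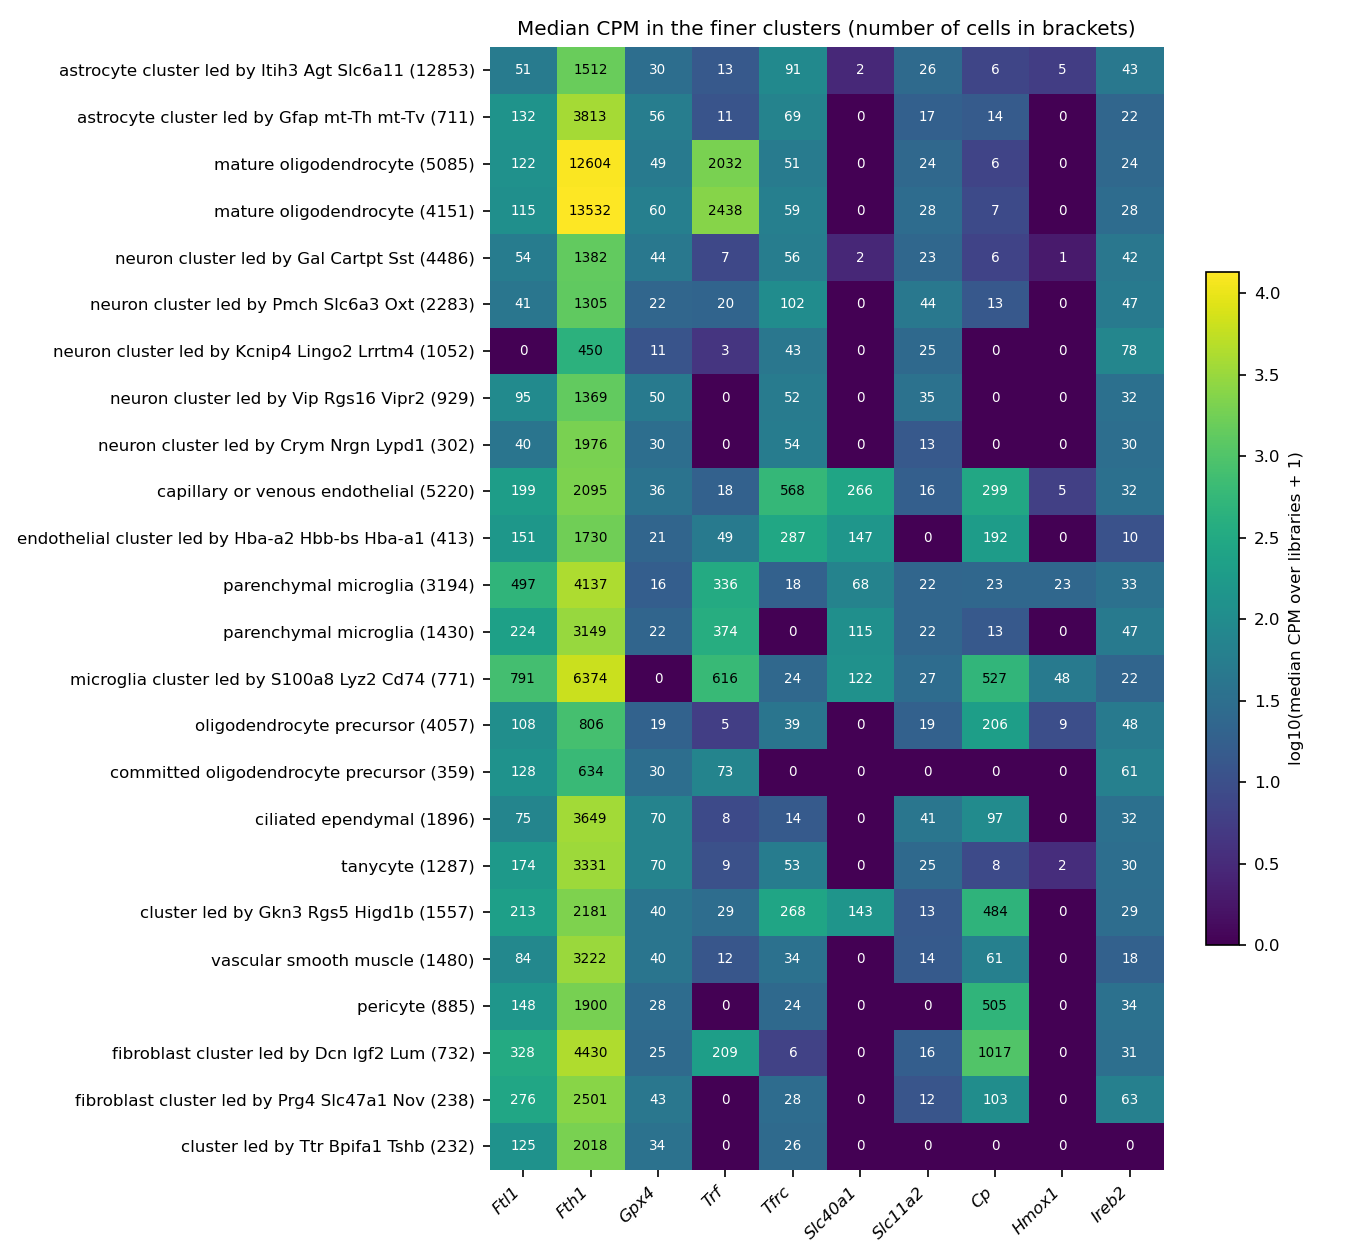
Median level of each member over libraries in 24 finer clusters, coloured by log10 of the median CPM plus 1; rows are clusters with their cell numbers and columns are members. *Fth1* and *Trf* are highest in the 2 mature oligodendrocyte clusters, while *Slc40a1* has medians over 50 in endothelial and microglial clusters and in the *Gkn3*-led cluster.

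Free RNA in the droplets can set a floor under these levels, and barcodes of low depth were taken as a guide to its composition. Whether those barcodes hold only free RNA was not tested. The share of a cell's UMIs that comes from free RNA was not measured. The low-depth CPM are therefore not the height of that floor, and cell levels can lie below them. Barcodes with 100 or fewer genes in 14 libraries had a mean of 5529 ± 1355 CPM *Fth1*, above the mean of 8 cell types and below that of oligodendrocytes. The same barcodes had 90.05 CPM *Trf*, above 6 types, 53.5 CPM *Tfrc*, above 5 types, 34.5 CPM *Cp*, above astrocytes, oligodendrocytes and neurons, and 9.39 CPM *Slc40a1*, above 7 types. Low levels of those genes in those types are therefore not read as expression. For *Fth1* this holds in 8 types, so the differences among those types, and the microglial and polydendrocyte levels, are relative levels that were not separated from free RNA. The low-depth barcodes had 0.0164 *Ftl1* UMIs per *Fth1* UMI, between the ratio of oligodendrocytes and those of polydendrocytes and microglia. *Ftl1* (99.9 CPM) lay above astrocytes and neurons, *Gpx4* (34.7 CPM) above microglia and polydendrocytes, and *Hmox1* (1.27 CPM) above neurons and mural cells, while *Slc11a2* (11.4 CPM) and *Ireb2* (19.5 CPM) lay above 0 types.

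The genes whose pattern over the 9 types was most like each member are given as a description over 9 points that share libraries and depth. *Ftl1* was followed by *Gm10116*, *Myo7a* (r = 0.955) and *Ifi27l2a* (0.944), *Fth1* by *Bbx* (0.960), *RP23-279M5.3* and *Adamtsl4*, and *Trf* by *Emilin2* (0.951), *Abl1* and *Arrdc3*. *Tfrc* was followed by *Ifi44* (0.948), *Ppapdc2* and *Wdr45*, *Slc40a1* by *Gm4070* (0.990), *Pmaip1* and *Grap*, and *Cp* by *Fut11* (0.952), *Fos* and *Hps3*. *Slc11a2* was followed by *4930578M01Rik* (0.967), *Ppp1r16a* and *Fggy*, *Hmox1* by *Frrs1* (0.970), *4632428N05Rik* and *Zswim6*, *Ireb2* by *Rbm5* (0.991), *Orc3* and *Clec16a*, and *Gpx4* by *Tppp3* (0.945) and *Pink1*.

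Another 101 genes of iron transport, storage and regulation, heme and iron-sulfur synthesis, and glutathione and lipid peroxide metabolism were counted from fixed lists. For transport 31 of 111 gene-type pairs tested were higher and 42 lower, for storage and regulation 44 and 47 of 135, for heme and iron-sulfur genes 61 and 72 of 244, and for glutathione and lipid peroxide genes 67 and 90 of 232. The shares were 25.0% to 32.6% higher and 29.5% to 38.8% lower, near the 29.8% and 37.9% of all genes over the 9 types, so these counts are not a result about the lists. Neurons had 26 higher and 42 lower of 84 (all genes 40.4% and 41.3%), and endothelial cells 33 and 28 of 83 (36.2% and 40.3%). Microglia had 24 and 35 of 81 (30.2% and 43.6%), and astrocytes 32 and 23 of 81 (32.3% and 41.2%). Oligodendrocytes had 27 higher and 29 lower of 79 (all genes 32.9% and 42.4%). The largest differences there were *Cpox*, a heme synthesis enzyme, at 454 against 36.8 CPM (log2 difference 4.05), and *Slc48a1*, a heme transporter, at 555 against 51.9 CPM (3.83). The microglia type was high in *Cd163*, the hemoglobin scavenger receptor, at 101 against 5.25 CPM (4.59), of which 98.7% of UMIs lay in the unnamed cluster led by *S100a8*, and in *Alox5*, a lipoxygenase, at 48.8 against 4.42 CPM (3.81). Endothelial cells had *Alox12*, another lipoxygenase, at 34.8 against 0.965 CPM (5.40), and *Epas1*, the transcription factor HIF-2 alpha, at 1113 against 63.1 CPM (4.40). Astrocytes (211 against 26.3 CPM, 3.20) and fibroblasts (375 against 44.8 CPM, 3.08) were high in *Slc7a11*, the cystine importer that feeds glutathione synthesis, and fibroblasts also in *Steap3*, a ferrireductase, at 55.2 against 9.49 CPM (2.70). *Gpx3*, a secreted glutathione peroxidase, was low in astrocytes, at 13.8 against 106 CPM (-2.71). Low genes included *Sepp1*, a selenium carrier, at 34.4 against 999 CPM in neurons (-4.92), 55.2 against 738 in polydendrocytes (-3.87) and 109 against 746 in ependymal cells (-2.68). Polydendrocytes had 21 higher and 30 lower of 77 (all genes 30.5% and 33.9%), and ependymal cells 17 and 28 of 80 (30.8% and 34.1%). Mural cells had 10 and 24 of 79 (17.1% and 34%), and fibroblasts 13 and 12 of 78 (15.9% and 29.2%). Red blood cell genes were higher in 4 and lower in 32 of 36 pairs, and choroid plexus genes in 6 and 12 of 18 (all genes 29.8% and 37.9%).

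The series asked what tamoxifen does in the hypothalamus-POA with and without estrogen receptor alpha, and the members were compared between groups in each cell type over mice. In wild-type ependymal cells, the comparison that *Ftl1* was picked from, WT oil mice had 486, 205 and 146 CPM and WT tamoxifen mice 126, 142, 82.9, 86.6 and 86.6 CPM. The groups did not overlap, with the closest libraries at 146 and 142 CPM, and the spread among WT oil mice was wide (279 ± 181 against 105 ± 27 CPM, SD). Of 7765 genes in ependymal cells, 148 (1.91%) were lower without overlap in the same comparison. Esr1cKO oil mice had 105, 221, 80.9 and 43.9 CPM and Esr1cKO tamoxifen mice 166, 135, 102 and 101 CPM, and these overlapped each other and both WT groups. The fitted log2 difference with tamoxifen was -1.39 (SE 0.41) in WT and 0.14 (SE 0.44) in Esr1cKO mice. Without WT oil mouse 1, which had the highest value and 77.9% tanycyte-like cells among its ependymal cells (20.7% to 77.9% over libraries), the WT difference was -0.78. It was -1.504 with shared barcodes removed, -1.75 without WT oil mouse 3 and Esr1cKO tamoxifen mouse 3, and -1.85 with both. Within tanycyte-like cells WT oil mice had 358 ± 181 CPM (lowest 197) and WT tamoxifen mice 157 ± 38 (highest 206). Within ciliated cells they had 197 ± 136 (lowest 104) and 71.5 ± 23.0 (highest 110). WT tamoxifen mice had the lower mean in both clusters, and the WT groups overlapped in both. The part of the cell mix in the difference was not tested. WT tamoxifen mouse 2 carried 108879 CPM of choroid plexus genes in its ependymal cells, nearly all *Ttr*, against 312 or less in the others, and red blood cell genes there were 140 to 477 CPM in WT oil, 126 to 274 in WT tamoxifen, 98.8 to 170 in Esr1cKO oil and 108 to 2085 in Esr1cKO tamoxifen mice. Their part in the result was not tested.

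**Figure D4:**
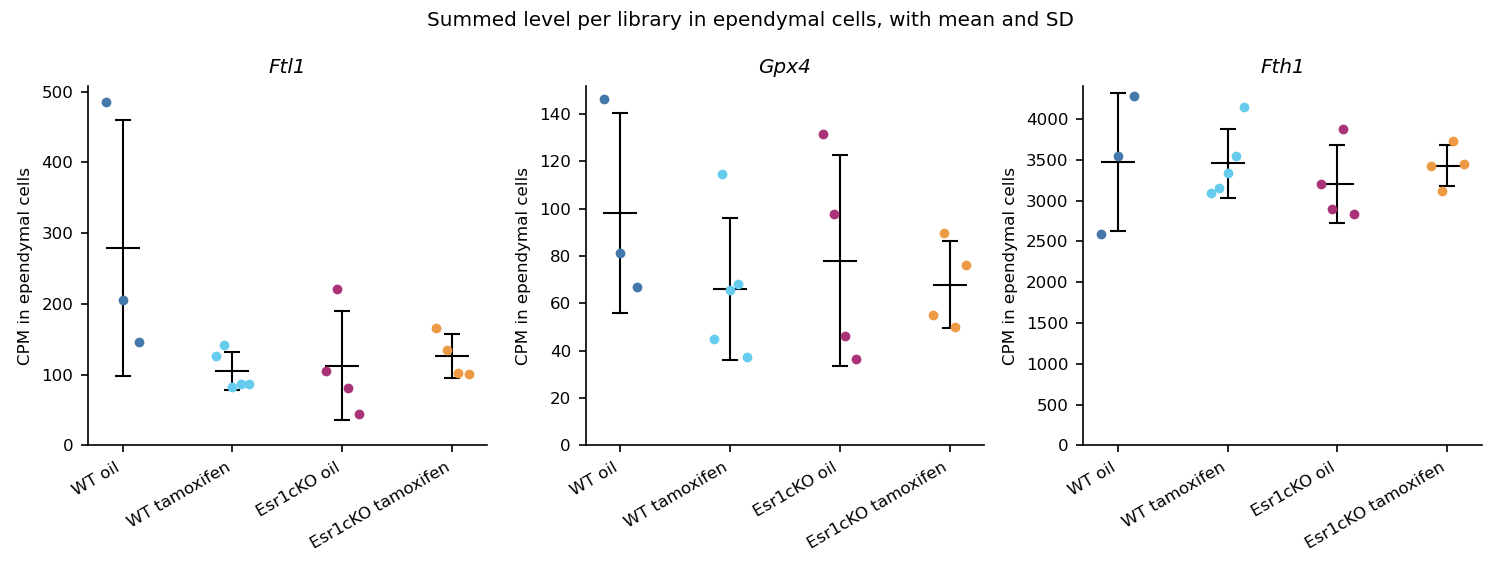
Levels of *Ftl1*, *Gpx4* and *Fth1* in ependymal cells by group, in CPM on linear axes from 0; points are mice and marks are the mean ± SD (n = 3, 5, 4 and 4). *Ftl1* of WT oil mice ranges from 146 to 486 and of WT tamoxifen mice from 82.9 to 142, while *Fth1* overlaps in all groups.

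*Fth1* in the same ependymal cells was 2597, 3548 and 4282 CPM in WT oil and 3098, 3152, 3341, 3549 and 4144 CPM in WT tamoxifen mice, a fitted log2 difference of 0.01 (SE 0.20). The *Gpx4* levels given above differed by -0.47 (SE 0.39), with overlap. WT oil means and WT tamoxifen means were 38.7 and 34.3 CPM for *Tfrc*, 37.2 and 38.8 for *Slc11a2*, 46.6 and 67.0 for *Cp* and 29.2 and 23.0 for *Ireb2*, and these groups overlapped as well. *Trf*, *Slc40a1* and *Hmox1* were too low in ependymal cells for a fit.

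Across all cell types 56 of the 90 member-type pairs had enough counts, and no member was called in any of the 5 comparisons. With tamoxifen in WT mice 0 of 49 tested pairs passed (0% of 65182 gene-type pairs overall; lowest edgeR adjusted p = 0.998), and with tamoxifen in Esr1cKO mice 0 of 56 (0% overall; lowest edgeR adjusted p = 0.95). Between genotypes 0 of 55 passed under oil (0% overall; lowest edgeR adjusted p = 0.565) and 0 of 55 under tamoxifen (0.00153% overall; lowest edgeR adjusted p = 0.999), and for the interaction 0 of 49 (0% overall; lowest edgeR adjusted p = 0.613). DESeq2 called 0 members in each comparison too. An unadjusted p under 0.05 was reached by 6 (12.2%), 2 (3.57%), 9 (16.4%), 3 (5.45%) and 9 pairs (18.4%) in that order, where all genes reached it in 3.23%, 3.57%, 4.79%, 3.21% and 4.86%. *Ftl1*, which was picked on the same WT mice, gave 4, 1, 6, 0 and 5 of these pairs. The counts are therefore not read as a result about the members as a set. Without WT oil mouse 1 the counts over all members were 3 of 51 (5.88%) with tamoxifen in WT mice, 5 of 57 (8.77%) between genotypes under oil and 5 of 51 (9.80%) for the interaction. Without Esr1cKO oil mouse 4 they were 9 of 50, 6 of 56 and 7 of 50, and 1 of 57 with tamoxifen in Esr1cKO mice. Without the pair that stood apart they were 5 of 57 with tamoxifen in Esr1cKO mice and 5 of 56 between genotypes under tamoxifen. *Ftl1* is among the members counted with libraries left out, and the shares over all genes in the same fits are not given here. Those counts are therefore not read as a result about the members either. WT oil mice stand in 3 of these comparisons, WT tamoxifen against oil, Esr1cKO against WT under oil, and the interaction, so their members' values are not independent of each other. Cell types of 1 mouse are not independent either. Of the other listed genes 0 were called in any comparison, although red blood cell genes reached an unadjusted p under 0.05 in 11 of 33 pairs with tamoxifen in WT mice and in 19 of 33 in Esr1cKO mice.

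Outside ependymal cells the fitted *Ftl1* difference with tamoxifen in WT mice was below 0 in the other 8 types, without passing the adjusted threshold. In mural cells the group means ran the other way (97.5 ± 101 CPM in WT oil and 126 ± 46 CPM in WT tamoxifen mice), so no direction is read there. The log2 differences were -1.03 in microglia (SE 0.28), -1.02 in polydendrocytes (SE 0.31), -0.87 in neurons (SE 0.25) and -0.82 in oligodendrocytes (SE 0.27), each with an edgeR adjusted p of 0.999 or more. In microglia the WT groups did not overlap, at 675 to 1063 and 367 to 619 CPM, where 1.66% of 5893 genes were lower without overlap. In neurons WT oil mice had 114, 62.4 and 86.1 CPM and WT tamoxifen mice 43.8, 69.4, 40.3, 40.9 and 45.1 CPM. In polydendrocytes WT oil mice had 352, 155 and 207 CPM and WT tamoxifen mice 88.9, 195, 93.4, 104 and 103 CPM. WT oil mouse 1 was the highest of the 16 libraries for *Ftl1* in 8 of 9 cell types and Esr1cKO oil mouse 4 the lowest in 8 of 9. Without WT oil mouse 1 the median over 9 types, the picked ependymal value included, moved from -0.82 to -0.58 (-0.86 to -0.36). An unadjusted edgeR p under 0.05 was then reached in 2 of 8 types. *Ftl1* was picked on the same WT mice, and the types share mice. Neither this count nor the common sign is therefore read as support.

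Esr1cKO oil against WT oil mice also gave *Ftl1* values below 0 in 9 of 9 types, from -1.54 in polydendrocytes (SE 0.34, edgeR adjusted p = 0.565) to -0.30 in mural cells. The reference is the same WT oil mice that *Ftl1* was picked on, so this count is not separate from that with tamoxifen in WT mice. The fitted median was -1.06, and it was -0.68 without WT oil mouse 1 and -0.83 without Esr1cKO oil mouse 4. Without a filter on low counts the polydendrocyte value of -1.46 was called (edgeR adjusted p = 0.000741), the single call of a member in any fit of these comparisons. In that setting 66 of 196140 gene-type pairs over all genes were called, against 0 of 65182 with the filter. *Ftl1* was picked on the same WT oil mice, so this call is not read as support. Tamoxifen in Esr1cKO mice gave values of 0.02 to 0.61, a median of 0.24, and without Esr1cKO oil mouse 4 a median of 0.04 with 3 of 9 types below 0. Under tamoxifen the genotypes differed by -0.09 to 0.42, and the interaction was 0.24 to 1.53. In mural cells the sign in WT mice and under oil turned when WT oil mouse 3 was left out (0.61 and 0.52). The pseudogene *Gm10116* gave medians of -0.997 with tamoxifen in WT mice, 0.52 with tamoxifen in Esr1cKO mice and -1.12 between genotypes under oil over 8 types, which is not separate evidence if its UMIs are *Ftl1* reads.

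*Gpx4* had values below 0 in 6 of 6 types with tamoxifen in WT mice, from -0.73 in neurons (SE 0.25, edgeR adjusted p = 0.9999) to -0.15, and none passed adjustment. In neurons WT oil mice had 98.0, 59.0 and 31.8 CPM and WT tamoxifen mice 48.5, 31.4, 30.4, 39.3 and 34.7 CPM, with overlap. Without WT oil mouse 1, the highest library for *Gpx4* in 6 of 9 types, 4 of 6 values were below 0 with a median of -0.22 against -0.52, and 0 types had an unadjusted edgeR p under 0.05. Esr1cKO against WT under oil gave a median of -0.46 and, without that mouse, -0.19. *Fth1* had medians of 0.11 and 0.11 for tamoxifen in WT and Esr1cKO mice and -0.05 and -0.02 between genotypes under oil and tamoxifen, and no pair had an unadjusted edgeR p under 0.05.

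**Figure D5:**
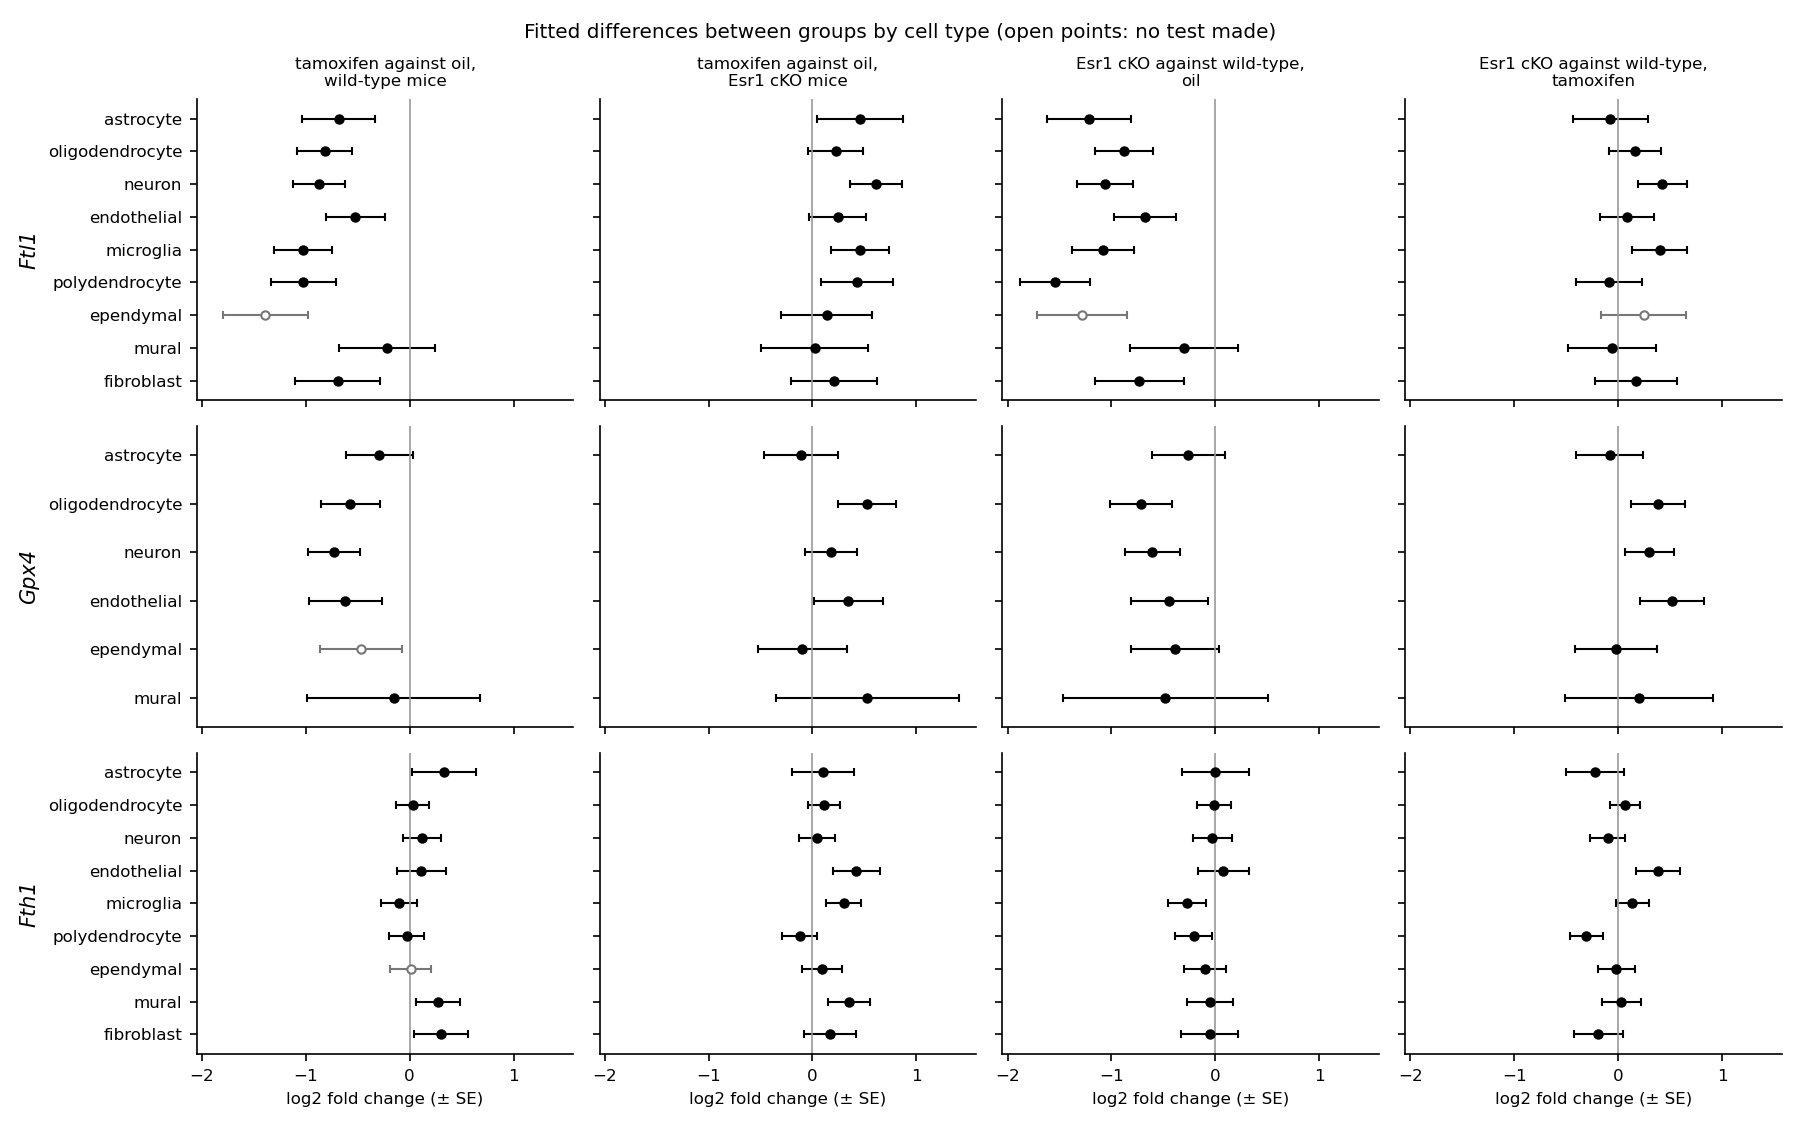
Log2 difference ± SE of *Ftl1*, *Gpx4* and *Fth1* in each cell type. The comparisons are tamoxifen against oil in WT and Esr1cKO mice, and Esr1cKO against WT under oil and tamoxifen. Open points were not tested, because *Ftl1* was chosen on tamoxifen against oil in WT ependymal cells. They are ependymal values of these genes with tamoxifen in WT mice, and of *Ftl1* between genotypes. The fitted *Ftl1* values lie below 0 in 9 of 9 types with tamoxifen in WT mice and between genotypes under oil, where the same WT oil mice are the reference. The ependymal value that *Ftl1* was picked on is among those in WT mice. The types share mice, so their common sign is not separate evidence. In mural cells both values turn above 0 without WT oil mouse 3, and the group means in WT mice run the other way. *Fth1* has medians of -0.05 to 0.11.

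Among the other members, *Trf* in polydendrocytes was 44.6, 30.2, 54.8 and 48.0 CPM in Esr1cKO oil and 16.7, 7.06, 17.6 and 14.6 CPM in Esr1cKO tamoxifen mice (log2 difference -1.59, SE 0.51, edgeR adjusted p = 0.95), without overlap, as 1.18% of 7775 genes were in that direction, and below the level of low-depth barcodes. *Trf* in endothelial cells differed by -0.93 with tamoxifen in WT mice and by 1.11 between genotypes under tamoxifen (SE 0.41 and 0.35), also at levels below those barcodes. *Tfrc* in ependymal cells was 58.5, 24.8 and 32.7 CPM in WT oil and 17.5, 15.4, 17.3 and 21.9 CPM in Esr1cKO oil mice (-0.97, SE 0.43). These groups did not overlap, as 2.36% of 7765 genes did not in that direction. The ependymal mean over all mice, 27.5 CPM, lay below the 53.5 CPM of low-depth barcodes. *Cp* in endothelial cells was 335 ± 72 CPM in WT tamoxifen and 448 ± 101 in Esr1cKO tamoxifen mice (0.44, SE 0.21). *Ireb2* in ependymal cells was 23.0 ± 8.1 and 36.4 ± 14.5 CPM in the same groups (0.82, SE 0.38). *Slc40a1* was fitted in endothelial cells and microglia with log2 differences of -0.31 to 0.26 over the 4 group comparisons, and *Slc11a2* in 4 types with -0.44 to 0.30. None of these pairs passed adjustment, and the lowest edgeR adjusted p among those named was 0.95.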

How the data were processed

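Drop-seq libraries of 16 mice were used, 1 count table per mouse. The authors deposited whole-number UMI counts per gene and cell barcode, not normalized, and all columns were used (0 columns of per-sample values left out). Per the labels, reads were aligned with STAR 2.6 to mm10 and cells handled with Seurat 3.6.1; the study's methods give Seurat 3.2.0 in R 3.6.1. The annotation and the handling of reads with several matches are not given in the sources used here.

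The study's filter was applied to barcodes (gene number above 200 and below 4000, mitochondrial share under 15%). Barcodes that passed were clustered with Seurat 5.3.0 in R 4.3.3 at resolution 0.05, with 1989 variable genes after 11 listed genes were left out, and named from markers. Scrublet in scanpy 1.11.5 called 476 of 55675 cells doublets (0.855%), kept in the main analysis. Counts were summed per mouse and cell type (at least 10 cells), since cells are not replicates, and tested with edgeR 4.0.16 (TMM, filterByExpr, quasi-likelihood, 4-group model; library block for cell types) with Benjamini-Hochberg adjustment over all genes of a cell type and a threshold of 0.05. DESeq2 1.42.0 was an alternative. The scripts were tested on simulated data. The Ftl1 to Fth1 ratio used libraries with at least 10 UMIs of each gene and an exact two-sided sign-flip test. Intervals and SEs cover the spread between mice, and the number of UMIs limits low genes. CPM are UMIs per 1000000 UMIs of a cell type.

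Named genes are the 10 members, at most 2 or 3 other listed genes per comparison with the largest called difference, and for each member the 3 genes closest in pattern (Pearson r of log2 CPM plus 1, genes with at least 20 CPM in a type). The members and all gene lists, including 7 red blood cell and 10 choroid plexus genes, were chosen with earlier results of these data known. Since Ftl1 was chosen on tamoxifen against oil in wild-type ependymal cells, no member was tested there or in the ependymal interaction, nor Ftl1 between genotypes in ependymal cells. Each library is 1 mouse, so p-values measure the spread between mice. Alternatives are in the closing section. Some items named by these rules are not reported here.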

Additional observations from a re-analysis of the deposited data

Results flagged for a closer look

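Of 36 groups of 4 or 5 mice examined (each member in the type where its mean was highest, and *Ftl1*, *Fth1* and *Gpx4* also in ependymal cells), 3 had 1 mouse far from the others by Dixon's criterion, which chance alone gives in about 1 of 20 groups. In microglia *Ftl1* was 619 CPM in WT tamoxifen mouse 2, where the other 4 mice of the group had 367 to 391 CPM. In endothelial cells *Tfrc* was 295 CPM in Esr1cKO tamoxifen mouse 1, where the other 3 had 403 to 419.8 CPM. In ependymal cells *Slc11a2* was 14.98 CPM in Esr1cKO tamoxifen mouse 2, from 1 UMI in the smallest set of ependymal cells (51), where the other 3 had 39.0 to 42.6 CPM.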

How the results depend on the processing

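No paired analysis was possible because the replicate numbers follow accession order and tie no mice together across groups. Fours of library numbers, which the labels do not tie to the study's days, were fitted as a block term, and 0 members were called in the 5 comparisons. Signs were followed for 30 group differences, those of *Ftl1* and *Gpx4* with tamoxifen in WT mice and between genotypes under oil. Among these the block term turned the sign for *Ftl1* in mural cells of WT mice alone. Members called between groups numbered 0 in all 5 comparisons under every alternative run, except that without a filter on low counts 1 was called for Esr1cKO against WT under oil (*Ftl1* in polydendrocytes), and leaving out each library gave 0 to 0. Over all genes and 9 cell types, calls in WT tamoxifen, Esr1cKO tamoxifen, the interaction, and the genotypes under oil and under tamoxifen numbered 0, 0, 0, 0 and 1. They numbered 56, 80, 140, 66 and 68 without the filter, 1, 0, 0, 2 and 3 with DESeq2, and 5, 6, 16, 3 and 11 without the pair of libraries that stood apart (WT oil mouse 3 and Esr1cKO tamoxifen mouse 3). Removing that pair and removing cells of shared barcodes were chosen after seeing the data, while another pair (WT oil mouse 2 and Esr1cKO tamoxifen mouse 2) had been planned. The 62 calls between cell types ranged from 60 to 67 and the 7 ratio calls from 5 (planned pair left out) to 8 (resolution 0.5); leaving out each library gave 60 to 63 and 6 to 7. Of 82 type differences 58 kept their sign and side of the threshold under every alternative, as did 21 of those 30 group differences and 5 of 9 ratios. For *Ftl1* in ependymal cells the WT tamoxifen difference was -1.85 with shared barcodes and that pair removed and -0.78 without WT oil mouse 1, and the genotype difference under oil ran from -1.88 to -0.68 over the libraries left out. The 51 to 490 ependymal cells per mouse and the few UMIs of *Slc40a1*, *Hmox1* and *Slc11a2* outside their main types limit what could be fitted.

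Values that turned sign lay mostly near 0, and the cause was not tested. With cells of more than 500 genes they were *Cp* in mural cells (-0.78), *Fth1* in ependymal cells (0.0208), *Gpx4* in astrocytes (0.090) and the ependymal ratio (-0.00949). At resolution 0.5 they were *Fth1* (0.00696), *Ftl1* (-0.0289) and the ratio (-0.0477) in ependymal cells, and *Ftl1* (0.68), *Slc40a1* (1.91) and *Tfrc* (1.31) in mural cells. With DESeq2 and with its size factors they were *Fth1* in fibroblasts (-0.0685 and -0.0694), *Ftl1* in ependymal cells (-0.111 and -0.110) and *Gpx4* in mural cells (-0.223 and -0.218). Without the filter *Fth1* in fibroblasts was -0.142 and *Ftl1* in ependymal cells -0.160, and with shared barcodes removed they were -0.0494 and -0.0452. Without the planned pair *Ftl1* in ependymal cells was -0.00525. Without the pair that stood apart *Gpx4* in endothelial cells was 0.000476, and *Ftl1* in mural cells was 0.54 between genotypes under oil and 0.61 with tamoxifen in WT mice. With both removals these were 0.0225, 0.47 and 0.60, and *Fth1* in fibroblasts was -0.0585. With the fours of library numbers as a term *Ftl1* in mural cells was 0.0764 in WT mice. Leaving out 1 library also turned signs, and over the libraries left out the values ran from -0.0586 to 0.0183 for *Fth1* in ependymal cells, -0.00803 to 0.155 for *Fth1* in fibroblasts, -0.0643 to 0.0397 for *Ftl1* in ependymal cells, -0.0377 to 0.0700 for the ependymal ratio, -0.0810 to 0.0325 for *Gpx4* in endothelial cells and -0.0603 to 0.0210 for *Gpx4* in neurons. Between groups they ran, with tamoxifen in WT mice and then between genotypes under oil, from -0.50 to 0.61 and -0.58 to 0.52 for *Ftl1* in mural cells, -0.54 to 0.0249 and -0.50 to 0.0626 for *Gpx4* in astrocytes, and -0.66 to 0.134 and -0.99 to 0.000907 for *Gpx4* in mural cells. Group differences of other members turned sign as well when 1 library was left out. With tamoxifen in WT mice this was so in 4 of 9 types for *Fth1*, 5 of 7 for *Cp* and for *Ireb2*, and 4 of 6 for *Trf* and for *Tfrc*. For the interaction it was so in 8 of 9 types for *Fth1*.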
